A study of Mus musculus with 6 samples.

Results

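The genes described here encode 10 transcription factors that direct blood cell lineages: Spi1, Runx1, Ikzf1, Gata2, Cebpa, Cebpb, Pax5, Ebf1, Tcf3 and Myb. They were read through every probe set, a group of short oligonucleotides that reports 1 transcript or several transcripts of a gene, that the platform annotation pairs with exactly 1 of these genes. This gave 27 probe sets of the 45101 on the array, of which 34945 were paired with exactly 1 gene. The cells were mouse Ba/F3-N, a bone marrow line that carries the oncogenic G12D form of NRAS in every sample. The first group was given 1 µM N-arachidonoyl dopamine (NADA), a lipid made of arachidonic acid and dopamine, and the second an equal volume of vehicle. Both were harvested at 12 hours, with 3 samples and 3 Affymetrix Mouse Genome 430 2.0 arrays per group. The culture medium was RPMI 1640 with 10% fetal bovine serum in both groups. All samples come from 1 transformed line. The sources used here do not say whether that line is a single clone or what drives the introduced NRAS.

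Lineage factors bind enhancers and promoters of blood cell genes and often act in opposing or cooperating pairs. PU.1 (encoded by Spi1) and the C/EBP proteins drive myeloid genes, GATA2 acts in stem, progenitor and mast cells, and RUNX1 and MYB are needed in early progenitors. Ikaros (Ikzf1), E2A (Tcf3), EBF1 and PAX5 set up the B cell programme, with PAX5 fixing B cell commitment. Ba/F3 is commonly described as a pro-B line that depends on interleukin-3.

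The deposited values are linear intensities, treated as normalized by the authors, and log2 of them was compared by limma with probe sets kept apart. A probe set was tested if its mean over all 6 arrays reached 39.01, the median of all probe sets, and is called dim otherwise. The threshold for a call was 0.05 on p-values adjusted by Benjamini-Hochberg over the 18975 probe sets tested. Of these 72.0% were called, 33.8% higher and 38.2% lower in NADA, so a call by itself is common here. Log2 differences are NADA minus vehicle, and the ± beside them is the standard error of the fit. The groups also differed in control RNAs. The mean log2 intensity of the 24 probe sets for bacterial poly-A RNAs, which are added before labelling, was 8.72 ± 0.21 in NADA and 8.14 ± 0.01 in vehicle (SD, n = 3 each, two-sided exact permutation p = 0.1, the smallest that 3 against 3 arrays allow). Setting the arrays equal in these added RNAs, here called spike-in scaling, lowers every log2 difference by 0.58. Whether that gap comes from handling or from the amount of mRNA in the samples cannot be told apart, so the value after this scaling stands beside each result whose direction or call it changes.

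Of the 27 probe sets 18 passed the dim filter, from 7 of the 10 genes. In NADA 10 were higher, 5 were lower and 3 were not called. That is 83.3% of those tested, near the 72.0% of all probe sets, and the count is therefore no result about these genes. Both groups also did not overlap in 83.3% of them, against 75.0% of all probe sets. A log2 difference of at least 1 in size was found for 4 of the 18, or 22.2%, against 10.5% of all probe sets that were called with such a difference. These were Runx1 1422864_at, 1422865_at and 1452531_at and Myb 1422734_a_at, so the share counts Runx1 repeatedly and is no result about the 10 genes. Of these, 1422865_at passed the dim filter only through NADA. Under spike-in scaling 4 of the 18 were higher (6.37% of all probe sets) and 10 lower (76.3% of all). In 2 tested probe sets, Runx1 1422865_at and 1452530_a_at, the vehicle mean was under the dim limit. In Tcf3 1452542_x_at the NADA mean was, so these passed through the brighter group. The genes divided into Myb and most Runx1 probe sets, which were higher in NADA; Tcf3 and Gata2, which were lower; Spi1 and Cebpb, whose direction turned with the scaling; and Ikzf1, which was not called with the values as deposited.

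**Figure D1:**
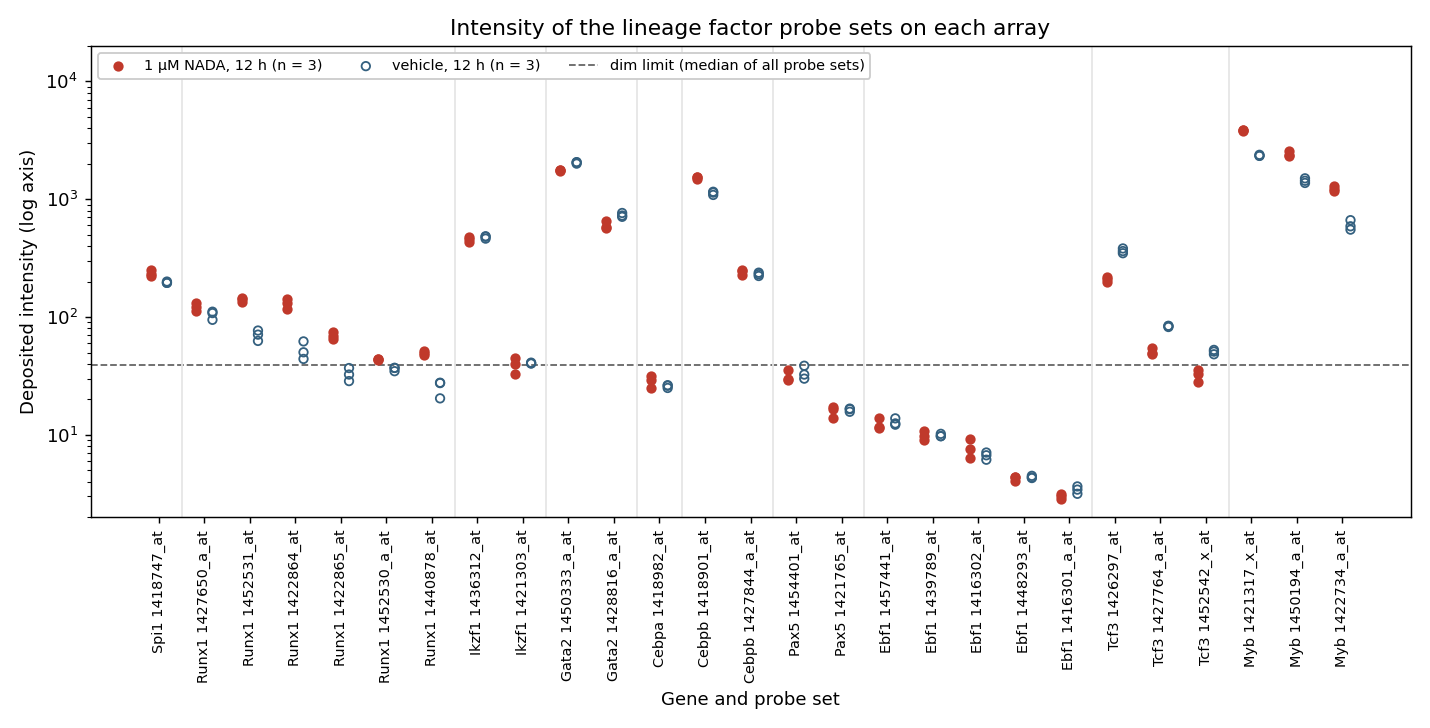
Deposited intensity (log axis) of the 27 probe sets on each array, with 3 NADA arrays as filled points left of 3 vehicle arrays as open points. The dashed line is the dim limit of 39.01, and all probe sets of Cebpa, Pax5 and Ebf1 lie under it, from 2.84 to 38.6.

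Myb, the gene of the c-Myb protein that keeps progenitor cells immature and dividing, was higher in NADA through all 3 of its probe sets. Probe set 1422734_a_at gave intensities of 1176, 1218 and 1298 in NADA, against 664, 589 and 552 in vehicle. Each NADA array lay above every vehicle array by a wide margin. The log2 difference was 1.04 ± 0.06 (adjusted p = 4.2e-09), and it stayed positive and called under spike-in scaling (0.46, adjusted p = 0.00036). Probe set 1450194_a_at gave 2359, 2315 and 2563 in NADA and 1374, 1434 and 1504 in vehicle, a log2 difference of 0.75 ± 0.04 (adjusted p = 4.48e-09). The brightest, 1421317_x_at, gave 3839, 3791 and 3841 in NADA and 2382, 2340 and 2332 in vehicle, a log2 difference of 0.70 ± 0.03 (adjusted p = 7.49e-11). Probe sets of the x type can also bind other transcripts. In none of the 3 did the groups overlap, but these last 2 were no longer called under spike-in scaling (0.17, adjusted p = 0.216, and 0.12, adjusted p = 0.389).

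Within an array, where scaling has no effect, the gap between 1421317_x_at and 1422734_a_at was 1.64 ± 0.07 log2 units in NADA and 1.97 ± 0.12 in vehicle (SD, n = 3 each), with no overlap. Probe set 1422734_a_at thus recorded a larger change than 1421317_x_at. The gap between 1421317_x_at and 1450194_a_at overlapped between the groups, at 0.67 ± 0.07 in NADA and 0.71 ± 0.08 in vehicle (exact permutation p = 0.5). MYB's relative Mybl2, a cell cycle gene induced by E2F factors, changed the other way. It had 54.7, 59.8 and 46.0 in NADA and 236, 237 and 244 in vehicle, and fell by 2.17 ± 0.09 on the log2 scale (adjusted p = 9.43e-11). The within-array difference of Myb minus Mybl2 was 6.17 ± 0.20 in NADA and 3.30 ± 0.04 in vehicle. Its groups could not overlap, since each gene already separated them, in opposite directions. As a distance over all 6 arrays, the 3 genes closest to Myb among 10519 others were Mdm2, the ubiquitin ligase that restrains p53, Tmbim4 and Ak1. Their root mean square distances were 0.007, 0.018 and 0.019 log2 units after each gene was set to its vehicle mean.

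Genes that MYB is reported to activate split by direction. Of 18 listed 16 were on the array, 8 passed the dim filter, and 4 rose and 4 fell as deposited. The median log2 difference was -0.07, and 0.01 over all genes. Under spike-in scaling these medians were -0.65 and -0.57. Of all genes 72.7% were called, 35.4% higher and 37.3% lower. Cxcr4, the receptor that holds progenitors in the marrow, rose by 2.48 ± 0.06, with 1015, 970 and 850 in NADA and 169, 160 and 177 in vehicle. The survival gene Bcl2 had 1336, 1393 and 1385 in NADA and 3365, 3304 and 3222 in vehicle, and fell by 1.27 ± 0.03. Adenosine deaminase (Ada) fell by 1.80 ± 0.11. The chaperone gene Hspa8 had a log2 difference of 0.45 ± 0.02 as deposited and of -0.12 under spike-in scaling (adjusted p = 0.446). Cd4, also counted as rising, turned to -0.38 under that scaling (adjusted p = 0.0127). Kit and Cd34, progenitor surface genes on the same list, were dim in both groups.

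RUNX1 is needed to form the first blood stem cells and binds DNA as a pair with CBFB. Its gene has a distal and a proximal promoter, whose transcripts differ at their start. Windows of 300 bases from RefSeq (build GRCm38.p6), 250 before to 50 after each start, are shown because the Runx1 probe sets differed from each other and the platform annotation does not say which transcripts each one detects. Both are on the minus strand of chromosome 16 and are written 5′ to 3′ along the gene. Capitals mark the matches to a search for 7 motifs on both strands.
Runx1 distal promoter, chr16:92826025-92826324: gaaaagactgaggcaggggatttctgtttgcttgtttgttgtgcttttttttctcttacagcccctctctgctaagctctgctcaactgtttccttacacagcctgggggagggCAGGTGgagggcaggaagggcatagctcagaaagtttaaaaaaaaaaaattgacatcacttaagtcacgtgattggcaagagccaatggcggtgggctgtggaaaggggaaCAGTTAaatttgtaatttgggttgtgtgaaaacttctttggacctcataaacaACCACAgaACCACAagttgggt
Runx1 proximal promoter, chr16:92697280-92697579: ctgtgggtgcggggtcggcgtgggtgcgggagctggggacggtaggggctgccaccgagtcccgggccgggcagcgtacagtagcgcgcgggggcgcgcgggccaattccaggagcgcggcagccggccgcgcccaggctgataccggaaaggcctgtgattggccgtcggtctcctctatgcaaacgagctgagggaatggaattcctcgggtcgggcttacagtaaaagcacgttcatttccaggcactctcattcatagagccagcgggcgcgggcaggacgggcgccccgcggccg

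The motifs were those of the factors themselves. RUNX proteins were searched as TGTGGT and E proteins as CAGGTG. For MYB the letters were TAACTG, and for GATA factors they were AGATAA. ETS factors, the family of PU.1, were searched as AGGAAGT and C/EBP proteins as TTGCNNAA, with N for any base. The last motif was a palindrome bound by EBF. The distal window held 4 matches, 2 to RUNX, 1 to E protein and 1 to MYB, none of which overlap. The proximal window held 0. Among all 32851 promoter windows 16.8% held the RUNX letters, 20.2% the E protein letters and 10.1% the MYB letters. Of the 13 windows found for 9 of the 10 genes, 1 other held a match, a RUNX match in 1 of the Ebf1 windows, and 11 held none. The GATA, ETS, C/EBP and EBF letters stood in no window of these genes and in 11.2%, 9.35%, 10.8% and 0.904% of all windows. A match is a string of letters and not a measured binding site. The distal window had 45.0% G and C and the proximal 69.0%, against a median of 52.7% over all windows.

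The Runx1 probe sets fell into large and small differences. Probe set 1422864_at gave 141, 131 and 117 in NADA and 62.1, 44.1 and 50.2 in vehicle, a log2 difference of 1.33 ± 0.11 (adjusted p = 1.62e-07). Only 4.67% of all tested probe sets had a difference larger in size. With 146, 133 and 142 in NADA and 76.8, 70.9 and 62.7 in vehicle, 1452531_at rose by 1.01 ± 0.08 (adjusted p = 8.59e-08). With 75.0, 69.1 and 65.4 in NADA and 36.9, 28.6 and 32.5 in vehicle, 1422865_at had a log2 difference of 1.10 ± 0.10 (adjusted p = 3.42e-07), but its vehicle mean of 32.7 lies under the dim limit, so it was tested because of its NADA signal. Under spike-in scaling 1422864_at and 1452531_at stayed higher and called, at 0.75 and 0.43, and 1422865_at stood at 0.52. The dim probe set 1440878_at, with 47.8, 51.6 and 49.9 in NADA and 27.5, 20.4 and 27.7 in vehicle, had a log2 difference of 1.00 ± 0.11 with no dim filter (adjusted p = 2.01e-06).

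The other Runx1 probe sets, both of the a type that is designed to bind several transcripts of a gene, moved much less. The brightest of the gene, 1427650_a_at, gave 131, 121 and 113 in NADA and 111, 94.7 and 108 in vehicle, a log2 difference of 0.22 ± 0.08 (adjusted p = 0.0213). The groups were separated by a narrow gap, the call depended on NADA replicate 1 (0.17 without it, adjusted p = 0.0921) and on vehicle replicate 2 (0.15 without it, adjusted p = 0.106), and the sign turned under spike-in scaling (-0.36, adjusted p = 0.00829). Probe set 1452530_a_at gave 43.9, 43.9 and 43.5 in NADA and 34.7, 37.0 and 37.0 in vehicle, a log2 difference of 0.27 ± 0.08 as deposited (adjusted p = 0.00687) and of -0.30 under spike-in scaling (adjusted p = 0.0826). If a gene is read by its brightest probe set alone, Runx1 differs by 0.22, and by the mean of its tested probe sets 0.79 ± 0.07. The size of the Runx1 difference therefore depends on the probe set, with log2 differences from 0.22 to 1.33 over those tested.

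The gap between Runx1 probe sets was measured within each array. For 1427650_a_at minus 1422864_at, both above the dim limit in each group, it was -0.10, -0.11 and -0.05 log2 units in NADA and 0.84, 1.10 and 1.10 in vehicle. Of the 10 pairs of tested Runx1 probe sets 8 had groups that did not overlap, although 1422865_at and 1452530_a_at, which enter 7 of the pairs, passed the dim filter only through NADA. The exact permutation p was 0.1 for each of the 8, the smallest possible, and 0.143 after adjustment over all 30 within-array comparisons made for these genes. Pairs of probe sets of other genes over the whole array were not compared, and 75.0% of all single probe sets separated the groups. The count of pairs is therefore no result about Runx1. For Actb, an actin gene, the 3′ probe set exceeded the 5′ one by 1.06 ± 0.05 log2 units in NADA and by 0.67 ± 0.04 in vehicle (SD, n = 3 each). For Gapdh, the other control gene, 3′ minus 5′ differed less, at -0.07 ± 0.06 in NADA and -0.22 ± 0.03 in vehicle. The exact permutation p was 0.1 for both, and signal along these 2 transcripts thus also differed between the groups. The part of such a difference in the gap between Runx1 probe sets was not tested.

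**Figure D2:**
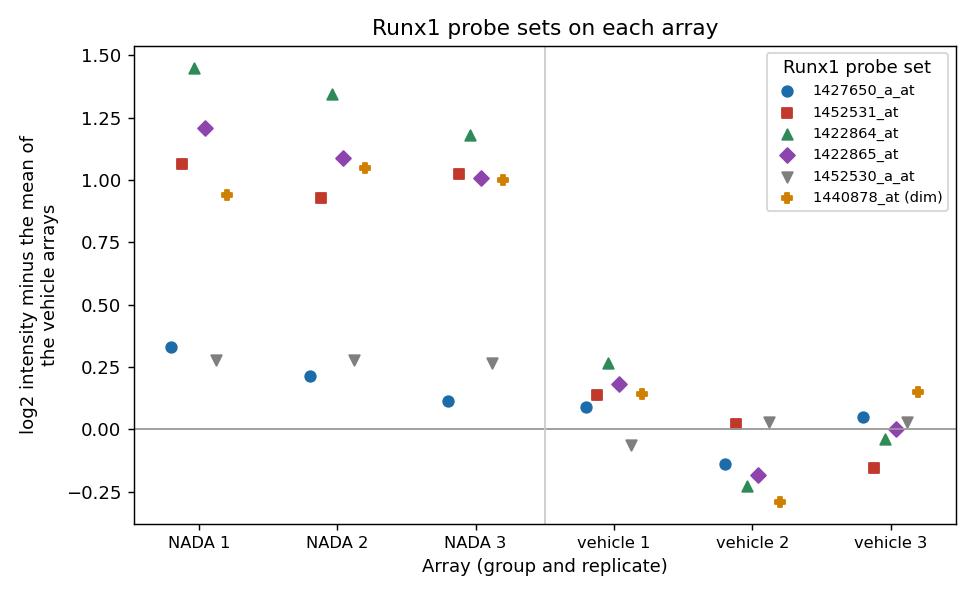
Log2 intensity of the 6 Runx1 probe sets on each array, minus the probe set's mean over the vehicle arrays, with NADA arrays on the left. Log2 differences of the group means were 1.33, 1.10, 1.01 and 1.00 for 4 probe sets and 0.27 and 0.22 for the a type probe sets, whose sign turns under spike-in scaling.

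A RUNX relative and the RUNX partner gene Cbfb were lower. Runx3, a RUNX relative with roles in lymphoid and myeloid cells, had 408, 382 and 380 in NADA and 1088, 1104 and 1069 in vehicle, and fell by 1.48 ± 0.04 on the log2 scale (adjusted p = 4.95e-12). Cbfb, the shared partner of all RUNX proteins, had 2508, 2483 and 2399 in NADA and 3894, 3742 and 3639 in vehicle, and fell by 0.61 ± 0.03 (adjusted p = 1.79e-09). The groups did not overlap in either gene. Runx1 minus Cbfb within an array, by the brightest probe set of each, was -4.34 ± 0.075 in NADA and -5.17 ± 0.12 in vehicle. The groups did not overlap (exact permutation p = 0.1, and 0.143 after adjustment). Runx1 stands here by 1427650_a_at, the tested probe set of that gene with the smallest difference.

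GATA2 maintains progenitors and mast cells. Its gene fell modestly in NADA. Probe set 1450333_a_at gave 1781, 1765 and 1744 in NADA and 2005, 2055 and 2064 in vehicle, a log2 difference of -0.21 ± 0.03 (adjusted p = 2.88e-05). With 567, 580 and 648 in NADA and 709, 764 and 727 in vehicle, 1428816_a_at had a log2 difference of -0.30 ± 0.05 (adjusted p = 0.000211). The groups did not overlap in either, yet 63.5% and 53.5% of all tested probe sets differed by more. Under spike-in scaling the values were -0.79 and -0.87.

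Gata1, the relative that takes over from GATA2 as cells become erythroid, had 167, 177 and 198 in NADA and 92.0, 73.0 and 73.3 in vehicle. It rose by 1.19 ± 0.09 (adjusted p = 7.73e-08) and by 0.61 under spike-in scaling. Gata1 minus Gata2 within an array was -3.29 ± 0.14 in NADA and -4.69 ± 0.21 in vehicle. As Gata1 and Gata2 each separated the groups in opposite directions, overlap here was not possible. Zfpm1, which encodes the GATA cofactor FOG1, fell by 0.73 ± 0.05, with 442, 397 and 424 in NADA and 709, 694 and 684 in vehicle. Of the factors that join GATA proteins on DNA, Lyl1 (-0.65 ± 0.04), Lmo2 (-0.44 ± 0.03) and Ldb1 (-0.39 ± 0.07) fell. Tal1 had a log2 difference of 0.47 ± 0.04 as deposited and of -0.11 under spike-in scaling.

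Reported GATA2 targets of mast cells and progenitors split by direction. Among 12 tested, 6 rose while 5 fell, against 35.4% higher and 37.3% lower among all genes (median 0.18, or -0.40 under spike-in scaling). The vesicular monoamine transporter gene Slc18a2 had 3534, 3574 and 3678 in NADA and 1163, 1106 and 1153 in vehicle, and rose by 1.66 ± 0.03. The growth factor gene Csf1 rose by 1.04 ± 0.06. Ramp1, a receptor accessory protein gene, had a log2 difference of 0.78 ± 0.04 as deposited and was not called under spike-in scaling (0.20, adjusted p = 0.149). The mast cell genes Kit, Fcer1a, Ms4a2 and Mcpt8 were dim in both groups, while Cpa3 averaged 249 ± 10.7 in NADA and 294 ± 3.1 in vehicle (SD, n = 3 each).

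The genes of PU.1 and C/EBPβ, factors of the myeloid programme, were higher in NADA with the values as deposited and turned negative under spike-in scaling. The single Spi1 probe set, 1418747_at, gave 253, 233 and 225 in NADA and 200, 195 and 195 in vehicle, a log2 difference of 0.27 ± 0.06 (adjusted p = 0.000786) that turned to -0.31 under spike-in scaling (adjusted p = 0.0143). All NADA arrays lay above the vehicle arrays, but 56.5% of all tested probe sets differed by more. Spi1 minus Gata2 within an array, which does not depend on scaling, was -2.90 ± 0.07 in NADA and -3.38 ± 0.04 in vehicle. That pair could not overlap, as Spi1 and Gata2 each separated the groups in opposite directions. Gata1 minus Spi1 was -0.39 ± 0.20 in NADA and -1.32 ± 0.17 in vehicle, without overlap. Spi1 thus gained on Gata2, while Gata1 gained on Spi1. PU.1 and GATA factors are known to restrain each other, which was not tested here.

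For Cebpb, which is induced by cytokines and stress, probe set 1418901_at gave 1544, 1490 and 1540 in NADA and 1087, 1138 and 1157 in vehicle. The log2 difference was 0.44 ± 0.04 as deposited (adjusted p = 1.27e-07) and -0.14 under spike-in scaling (adjusted p = 0.288). The groups were well apart on this probe set. The other, 1427844_a_at, gave 227, 249 and 244 in NADA and 223, 231 and 238 in vehicle, groups that overlap, with a log2 difference of 0.06 ± 0.05 (adjusted p = 0.362) and of -0.52 under spike-in scaling (adjusted p = 3.73e-05). Within an array the first exceeded the second by 2.67 ± 0.09 log2 units in NADA and by 2.29 ± 0.01 in vehicle, so the 2 probe sets recorded unequal changes. Cebpa, the C/EBP gene that starts granulocyte development, was dim. Its probe set 1418982_at gave 24.9, 29.1 and 31.4 in NADA and 25.0, 26.1 and 26.4 in vehicle (adjusted p = 0.328 with no dim filter).

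C/EBP relatives that pair with these proteins included Ddit3 (CHOP), a stress gene, with 1468, 1403 and 1280 in NADA and 220, 211 and 219 in vehicle. It rose by 2.67 ± 0.05 (adjusted p = 2.95e-13), and by 2.09 under spike-in scaling. Cebpd and Cebpg had log2 differences of 0.37 ± 0.05 and 0.47 ± 0.05 as deposited and of -0.21 and -0.11 under spike-in scaling. Of 16 tested genes reported as myeloid targets of PU.1 and C/EBP 11 rose and 1, Prtn3, fell, against 35.4% higher and 37.3% lower among all genes (median 0.36, and -0.22 under spike-in scaling). Csf2rb, the signalling chain shared by the receptors for interleukin-3, interleukin-5 and GM-CSF, had 3360, 3311 and 3340 in NADA and 942, 1006 and 1022 in vehicle, and rose by 1.75 ± 0.04. The Fc receptor gene Fcgr3 rose by 1.43 ± 0.06 and the oxidase subunit gene Ncf1 by 1.31 ± 0.04, both also called under spike-in scaling. The lysosomal membrane protein gene Laptm5 had a log2 difference of 0.70 ± 0.03 as deposited, which was not called under that scaling (0.12, adjusted p = 0.405). Another 12 genes of that list were dim, among them Mpo, Elane, Itgam and Cd14.

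Tcf3, which encodes the E protein E2A that opens the B cell programme, was lower in NADA through all 3 probe sets. Probe set 1426297_at gave 219, 211 and 199 in NADA and 382, 363 and 348 in vehicle, a log2 difference of -0.80 ± 0.05 (adjusted p = 2.12e-08). With 49.7, 54.2 and 48.5 in NADA and 82.3, 84.2 and 83.9 in vehicle, 1427764_a_at had a log2 difference of -0.72 ± 0.07 (adjusted p = 1.03e-06). With 32.6, 28.2 and 35.2 in NADA and 48.3, 50.9 and 52.6 in vehicle, 1452542_x_at had a log2 difference of -0.67 ± 0.10 (adjusted p = 2.92e-05), although its NADA values lie under the dim limit. The groups did not overlap in any of the 3, and the differences between these probe sets within an array did overlap. Under spike-in scaling the values were -1.37, -1.30 and -1.24. The genes closest to Tcf3 in distance over the arrays were Pop7 (0.013 log2 units), Rars2 (0.019) and Nubp2 (0.020).

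E proteins act in pairs and are blocked by ID proteins, which bind them but not DNA. The other E protein genes did not fall with Tcf3 as deposited. Tcf12 had 1570, 1562 and 1579 in NADA and 1276, 1268 and 1293 in vehicle, a log2 difference of 0.30 ± 0.03 (adjusted p = 1.48e-06) that turned to -0.28 under spike-in scaling. Tcf4 was not called (0.09 ± 0.05, adjusted p = 0.112, and -0.49 under spike-in scaling). Tcf12 minus Tcf3 within an array was 2.91 ± 0.07 in NADA and 1.82 ± 0.08 in vehicle, where the opposite changes of the 2 genes as deposited left no room for overlap. The inhibitor gene Id1 had 75.9, 80.6 and 66.8 in NADA and 201, 184 and 191 in vehicle, and fell by 1.37 ± 0.08. Id2 had 337, 347 and 419 in NADA and 541, 563 and 588 in vehicle, and fell by 0.62 ± 0.07. Id1 minus Tcf3 within an array was -1.50 ± 0.10 in NADA and -0.92 ± 0.06 in vehicle, without overlap, while Id2 minus Tcf3 overlapped between the groups. Id3 and Id4 were dim.

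Ikaros, encoded by Ikzf1, is a zinc finger regulator of lymphoid development. Its gene was not called with the values as deposited. Probe set 1436312_at gave 475, 464 and 437 in NADA and 480, 463 and 485 in vehicle, a log2 difference of -0.05 ± 0.05 (adjusted p = 0.306). With 39.9, 44.6 and 32.7 in NADA and 40.3, 41.0 and 40.5 in vehicle, 1421303_at had a log2 difference of -0.07 ± 0.11 (adjusted p = 0.587). The groups overlapped in both, and under spike-in scaling both were called lower (-0.63 and -0.65). Ikzf2, which encodes the relative Helios, had 4315, 4272 and 4172 in NADA and 1258, 1298 and 1264 in vehicle. It rose by 1.74 ± 0.03 (adjusted p = 2e-13), and by 1.16 under spike-in scaling.

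Pax5 and Ebf1, whose proteins commit cells to the B lineage, had no signal above the dim limit on any array. The 2 Pax5 probe sets lay between 13.9 and 38.6 and the 5 Ebf1 probe sets between 2.84 and 13.9 over both groups. The NADA and vehicle arrays overlapped in each. Together with Cebpa, these 8 probe sets had adjusted p between 0.151 and 0.925 with no dim filter, and 0 were called. Levels this low do not show whether a few transcripts are present.

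Of the pro-B marker genes, 9 of 10 were on the array and 6 of them were dim: Cd79a, Vpreb1, Blnk, Rag1, Dntt and Il7r. Cd79b, Igll1 and Ptprc were above the limit. The summed intensity of the 9 ran from 6520 to 6835 in NADA and from 4212 to 4372 in vehicle, most of it from Ptprc, the leukocyte gene for CD45. Most of these pro-B markers were therefore under the dim limit in both groups. That limit is the median of all probe sets and does not show whether a transcript is absent. Of the genes reported as B cell targets of PAX5, EBF1 and TCF3, 20 were on the array, 14 were dim, 3 rose and 3 were not called (median 0.17, and -0.40 under spike-in scaling). Of the 18193 named genes on the array 10520 were tested, and 35.4% of these were higher and 37.3% lower. Ptprc had 6537, 6554 and 6254 in NADA and 3970, 4000 and 4133 in vehicle, a log2 difference of 0.68 ± 0.03, and 0.10 under spike-in scaling (adjusted p = 0.518). Cd79b, a B cell receptor chain gene, and Cplx2 had log2 differences of 0.46 ± 0.07 and 0.16 ± 0.06, both of which turned negative under spike-in scaling (-0.12 and -0.42).

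**Figure D3:**
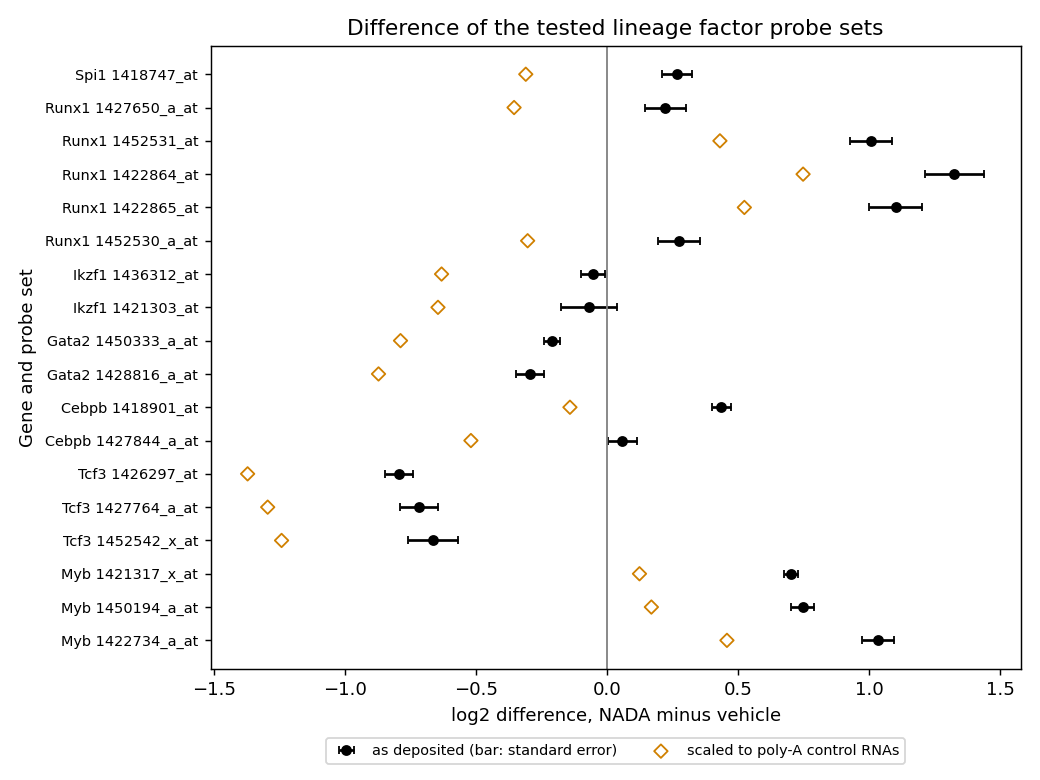
Log2 difference, NADA minus vehicle, of the 18 tested probe sets, as deposited (filled points, bars are standard errors) and under spike-in scaling (open diamonds). Tcf3 and Gata2 stay negative and 3 Runx1 and 3 Myb probe sets stay positive under both, although 2 of those Myb probe sets are not called under spike-in scaling, while Spi1, Cebpb and 2 Runx1 probe sets change sign.

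Genes around these factors were counted by their brightest passing probe set. Among relatives of the 10 factors 7 of 11 tested rose while 2 fell, with a median log2 difference of 0.30, and of -0.28 under spike-in scaling. Among partners and inhibitors 3 of 15 rose while 10 fell, and their median was -0.39, or -0.97 under spike-in scaling. Over all 10520 genes 35.4% were higher and 37.3% lower, with medians of 0.01 and -0.57. The coactivator gene Crebbp, which many of these factors recruit, was among the partners that rose (0.81 ± 0.04, and 0.23 under spike-in scaling, adjusted p = 0.0754), with 1072, 1049 and 1005 in NADA and 611, 587 and 588 in vehicle.

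Other blood lineage factors numbered 14 tested, of which 7 rose and 3 fell (median log2 difference 0.26, or -0.32 under spike-in scaling). The shares over all genes were 35.4% higher and 37.3% lower. Among those that rose, Nfe2, Gfi1b and Klf1 act in red cell and platelet precursors. Nfe2 averaged 923 ± 34.9 in NADA and 413 ± 4.02 in vehicle (SD, n = 3 each), a log2 difference of 1.16 ± 0.04. Gfi1b and Klf1 rose by 1.07 ± 0.05 and 1.05 ± 0.07. Nfil3, a factor of innate lymphoid cells that is induced by interleukin-3 in pro-B cells, rose by 1.18 ± 0.06. All 4 remained positive under spike-in scaling, between 0.47 and 0.60. Mitf, Zbtb16 and Mecom also rose as deposited but were not called under that scaling (0.18, 0.02 and -0.25). Those that fell were Etv6 (-0.65 ± 0.06), Zbtb7a (-0.41 ± 0.08) and Hhex (-0.28 ± 0.04).

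Erythroid and megakaryocyte markers did not move as 1 group. The counts of this paragraph stand against 35.4% higher and 37.3% lower among all genes. Of 7 tested 3 rose, Ppbp (1.02 ± 0.07), Epor (0.60 ± 0.06, and 0.02 under spike-in scaling, adjusted p = 0.869) and Gp9 (0.27 ± 0.07, and -0.31 under spike-in scaling), and Itga2b fell by 0.25 ± 0.05. The globin gene Hba-a1, Alas2 and Slc4a1 were dim, and the summed intensity of the 10 markers was 1151 to 1242 in NADA and 1153 to 1170 in vehicle. Of the 4 tested T and NK cell markers 1, Cd4, was called (0.20 ± 0.07, and -0.38 under spike-in scaling). Their 12 markers summed to 634 to 647 in NADA and 612 to 644 in vehicle. Of the 4 tested fibroblast, epithelial and endothelial markers Kdr was higher (0.20 ± 0.08, and -0.38 under spike-in scaling) and Pecam1 lower (-0.18 ± 0.07), with sums of 385 to 397 in NADA and 390 to 406 in vehicle.

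**Figure D4:**
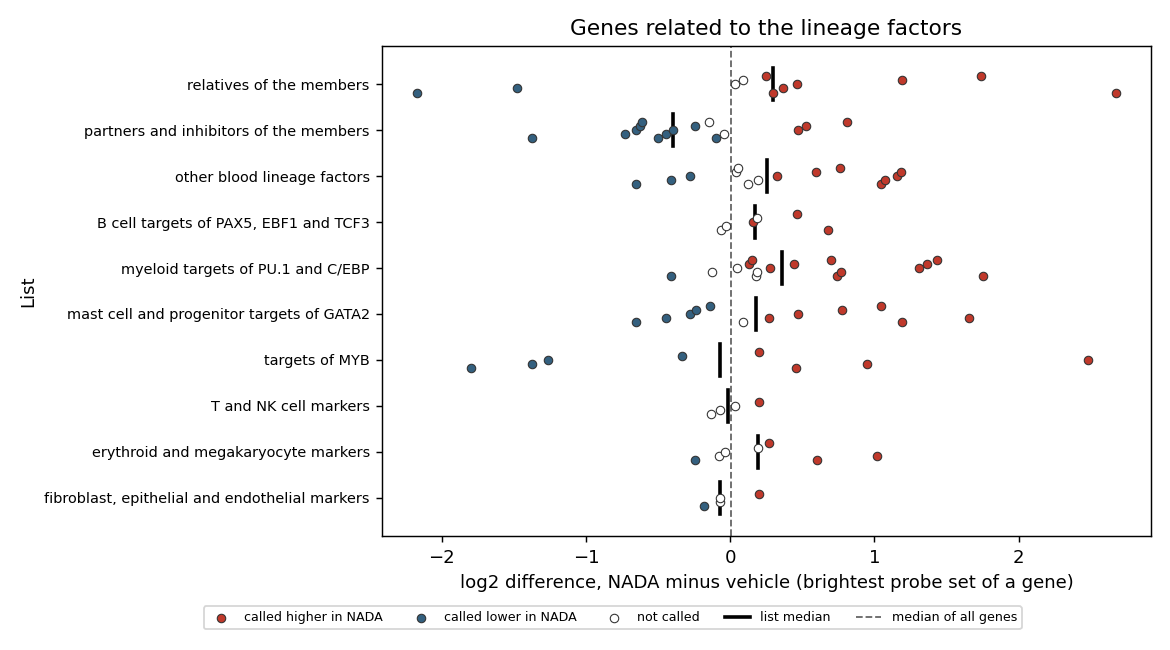
Log2 difference, NADA minus vehicle, of each tested gene in 10 lists, by its brightest probe set and with the values as deposited. The thick bars are list medians, from -0.39 for partners and inhibitors to 0.36 for myeloid targets, the dashed line is the median of all genes (0.01), and every positive list median is negative under spike-in scaling.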

How the data were processed

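Per the labels' protocols, total RNA was extracted with Trizol and labelled with biotin by an amplification kit. The authors deposited 1 intensity per probe set and array, between 2.19 and 20113. The submitters' processing notes list MAS5 and RMA without saying what each did, and array medians of 37.95 to 39.11 show that the arrays had been brought to a common level. The 64 control probe sets were left out. Log2 intensities were compared with limma 3.58.1 in R 4.3.3 (lmFit, then eBayes with an intensity trend), two-sided, the group being the sole factor, over probe sets with 1 gene. All 27 gene identifiers had the same symbol in RefSeq GRCm38.p6. Single values were tested with SciPy 1.17.1, and plots drawn with matplotlib 3.10.9.

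No label says that samples came from separate cultures, so the p-values cover array-to-array spread that may be technical. With 3 arrays per group their number limits the precision. Whether the replicate numbers pair the samples is not known. Deviations from the group means correlated at 0.21, -0.10 and 0.03 between arrays of the same number. Between arrays of different numbers they correlated at -0.24 to 0.22. With 3 arrays per group these correlations are too few to decide it.

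The genes and lists were chosen with earlier results of these data known. Named from the lists were up to 4 called genes with the smallest p, and the 3 genes nearest to the highest and lowest factor by distance. Gata1, Zfpm1, Lmo2, Ldb1, Tal1, Cebpd, Cebpg, Tcf12, Tcf4, Id2, Prtn3 and Cpa3 were named after their values were seen. So were Mitf, Zbtb16, Mecom, Etv6, Zbtb7a, Hhex and the gene pairs compared within arrays. Each gene pair without overlap had an exact permutation p of 0.1, or 0.143 after adjustment. Markers given only as dim were named from the fixed lists. Only the limma call was tested on simulated data, in which far fewer probe sets differed than were called here. Alternatives are in the closing section.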

Additional observations from a re-analysis of the deposited data

How the results depend on the processing

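Over 21 alternatives, 344 values of single lineage factor probe sets were computed, of which 319 kept direction and side of the threshold, 15 lost the call, 2 gained it and 8 changed sign. Scaling to the poly-A control RNAs gave 4 higher and 10 lower probe sets of these genes (1209 and 14485 of all), against 10 and 5 (6409 and 7255 of all) as deposited. It turned the sign of Spi1 (-0.31), Runx1 1427650_a_at (-0.36) and 1452530_a_at (-0.30), and Cebpb 1418901_at (-0.14) and 1427844_a_at (-0.52). This follows from its construction, since it lowers every value by 0.58. The uncalled Ikzf1 probe sets changed sign with quantile normalization (1436312_at, 0.0069), with array quality weights (1421303_at, 0.0506) and without NADA replicate 3 (1421303_at, 0.0548, against a lowest value of -0.089 without NADA replicate 1), and were not called there either. Alternatives that test fewer rows changed the counts by construction. A dim filter at the 70th percentile gave 5 higher and 3 lower. The brightest probe set per gene gave 4 and 2 (3775 and 3958 of all genes), and the mean of a gene's probe sets 4 and 2 (3640 and 4063 of all). A minimum of 1.5-fold gave 6 and 3 (2332 and 3097 of all). Leaving out 1 array gave 9 to 11 higher and 4 to 5 lower, and over all probe sets 5959 to 6479 higher and 6842 to 7220 lower. With the replicate block the counts were 10 and 5, and 6428 and 7275 of all, and it changed no call among these genes. The call of Runx1 1427650_a_at was lost under median centring (0.19), with a floor of 50 (0.22) and at an adjusted p under 0.01. With that floor all arrays of Runx1 1452530_a_at were set to 50, so its log2 difference was 0, and Tcf3 1452542_x_at was not called (-0.03).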
